A study of Mus musculus with 2 samples.

Results

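The genes described here were 8 chemokines, Ccl2, Ccl7, Ccl19, Cxcl1, Cxcl2, Cxcl9, Cxcl10 and Cxcl14, and the atypical chemokine receptor Ackr4, which together made 9 of the 27941 gene symbols counted. They were picked by symbol from earlier results of these data, for their levels across stromal classes and across the level of the immediate early genes Fos, Jun and Egr1. Those patterns are therefore given as descriptions, without a test. Tests were kept for the tdTomato state of the cells, which the choice did not use, and for other genes of the pathway.

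Single-cell RNA-seq was performed on femoral marrow cells of 2 mice at P28, with 1 library per mouse. Both mice were Cxcl12(GFP/+); Cxcl12-iCreER; R26R(tdTomato/+) and had received tamoxifen at P21, so there was 1 group of animals and no untreated or reporter-free control. The iCreER was driven by a Cxcl12 BAC transgene of 1 line, the GFP allele replaced 1 copy of Cxcl12, and the cells were freed from cut bone with enzymes before the sort. The labels call the sorted cells GFP+, while 1 protocol field calls them tdTomato+. Mouse 1 gave 2750 cells with a median of 12967 UMIs (unique molecular identifiers, each standing for 1 captured transcript), and Mouse 2 gave 4582 cells with a median of 12190. The mice shared 7 cell barcodes, where 1.85 were expected by chance.

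Chemokines are small secreted proteins that draw leukocytes along a gradient through G protein-coupled receptors. In the marrow, reticular stromal cells are best known for Cxcl12, which holds hematopoietic stem cells and B cell precursors through Cxcr4. Other stromal chemokines act on mature cells: Ccl2 and Ccl7 draw monocytes through Ccr2, Cxcl1 and Cxcl2 draw neutrophils through Cxcr2, Cxcl9 and Cxcl10 draw activated T cells through Cxcr3, and Ccl19 draws lymphocytes and dendritic cells through Ccr7. Ackr4 binds Ccl19 and related ligands without classical signaling and clears them. Cxcl14 is a conserved chemokine whose receptor is still debated.

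Of the 9 genes, 6 lay as close pairs in the GENCODE M21 annotation of GRCm38. Ccl2 (chr11:82035571-82037453) and Ccl7 (chr11:82045712-82047525) were 8258 bases apart on the plus strand. Cxcl1 (chr5:90891241-90893115) and Cxcl2 (chr5:90903871-90905938) were 10755 bases apart, also on the plus strand. Cxcl9 (chr5:92321347-92328079) and Cxcl10 (chr5:92346638-92348889) were 18558 bases apart on the minus strand. No protein-coding gene lay whole between the members of any pair. Ccl19 (chr4:42754525-42756577), Ackr4 (chr9:104084157-104126933) and Cxcl14 (chr13:56288643-56296551) stood alone on the minus strand of their chromosomes. Ccl2, Ccl19, Cxcl10 and Ackr4 overlapped genes of the opposite strand, among them Art3 at Cxcl10 and Acad11 at Ackr4. A second Ccl19 copy on the scaffold JH584294.1 was listed with 0 UMIs, and how reads that fit both copies were handled was not tested.

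Promoter stretches are shown where they hold a motif of the inflammatory factor NF-kappaB, since the neighbours Cxcl1 and Cxcl2 carry the same one and differ in where they were detected. The RefSeq promoter windows of GRCm38.p6, from 250 bases before to 50 bases after the start, held 7 of the 9 genes; Ccl2 and Ccl7 had no entry. The kappaB motif, GGGA and TTCC with any 2 bases between them, was searched on both strands. It occurred in 1.47% of 32851 such windows and in those of Cxcl1, Cxcl2 and Cxcl10, where the matches of Cxcl1 and Cxcl2 also read on the other strand, shifted by 1 base. The 3 stretches of 60 bases around the match are given 5′ to 3′ on the strand of the gene, with the match in capitals.
Cxcl1, chr5:90891149-90891208, plus strand: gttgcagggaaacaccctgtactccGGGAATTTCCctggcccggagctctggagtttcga
Cxcl2, chr5:90903777-90903836, plus strand: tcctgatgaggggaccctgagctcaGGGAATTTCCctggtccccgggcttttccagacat
Cxcl10, chr5:92349014-92349073, minus strand: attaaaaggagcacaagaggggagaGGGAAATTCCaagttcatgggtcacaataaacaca
The match began at base -71 from the RefSeq start in Cxcl1, at -97 in Cxcl2 and at -159 in Cxcl10. For Cxcl1 and Cxcl2 this start is not the GENCODE start given above, so the distances depend on the annotation. Around it, Cxcl1 and Cxcl2 shared a run of 14 bases, and across the whole windows they were identical at 54.3% of aligned positions, the highest of the 21 pairs of members with a window. The AP-1 letters TGANTCA, present in 7.81% of all windows, were found in Cxcl9 and Cxcl10. The core of interferon response elements, GAAA repeated after any 2 bases, stood in 3.44% of all windows and in those of Ccl19, Cxcl10 and Cxcl14. The Ackr4 window held none of these 3 motifs. A match is a description of letters, not of a bound site.

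Clustering without the members, the pathway genes and Fos, Jun and Egr1 gave 19 clusters, which were named from marker lists. Reticular-like cells, rich in the adipocyte-lineage genes Adipoq and Lpl, made up 1237 cells of Mouse 1 and 2411 of Mouse 2. Of these, 98.1% carried at least 10 Adipoq and Lpl UMIs per 10000. There were 415 and 842 preosteoblast-like, 81 and 236 periosteal-like, and 152 and 138 endothelial-like cells. Levels are given in CPM, the UMIs of a gene summed over a class in 1 mouse per 1000000 UMIs of that class. In the reticular-like class its 8 markers summed to 17449 and 15011 CPM, and in the preosteoblast-like class the same markers summed to 5115 and 3405. In periosteal-like cells the preosteoblast markers (13967 and 13961 CPM) were about as abundant as the periosteal ones (15635 and 12766). Since members of different length and position of priming are captured unequally, levels are compared between classes and not between genes.

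RNA outside cells carried these transcripts too. Among barcodes of 1 to 100 UMIs, Ccl2 stood at 256 and 434 CPM in Mouse 1 and Mouse 2, Cxcl14 at 475 and 496, and Cxcl9 at 65.0 and 102. Erythroid-like cells, which are not known to make these chemokines, held Ccl2 at 18.5 and 51.1 CPM, Cxcl14 at 20.3 and 53.7 and Cxcl10 at 20.6 and 36.5. The part of free RNA in the lower levels below was not tested.

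The monocyte ligands Ccl2 and Ccl7 were abundant in reticular-like and periosteal-like cells and low in preosteoblast-like and endothelial-like cells. In reticular-like cells Ccl2 reached 505 CPM in Mouse 1 and 1091 in Mouse 2. It was at 393 and 736 in the periosteal-like, 54.1 and 73.5 in the endothelial-like and 25.4 and 76.7 in the preosteoblast-like class. Reticular-like cells thus held 19.9-fold and 14.2-fold the level of preosteoblast-like cells. Against periosteal-like cells they were higher within each mouse, by 1.28-fold and 1.48-fold, although the ranges over the mice overlapped. The size of the ratio to preosteoblast-like cells moved with the processing. On the log2 scale it was 4.32 and 3.83 here, 3.16 and 3.82 with looser limits on cells, and 5.68 and 5.16 with a finer clustering. The finer clustering left a reticular cluster of 328 and 138 cells and a preosteoblast cluster of 155 and 242 unnamed, so both classes held fewer cells. Ccl7 was at 159 and 234 in reticular-like and at 158 and 180 in periosteal-like cells, which did not separate, against 4.99 and 23.1 in the preosteoblast-like and 11.6 and 11.8 in the endothelial-like class. The 2 genes also stood high in 1 cluster of 21 cells per mouse, led by the complement genes C1qa, C1qb and C1qc and left unnamed, where Ccl2 was at 254 and 849 and Ccl7 at 191 and 468. A single cell of that cluster held 56.3% and 70.4% of its Ccl2 UMIs, and without the top cell Ccl2 was at 118 and 277.

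**Figure D1:**
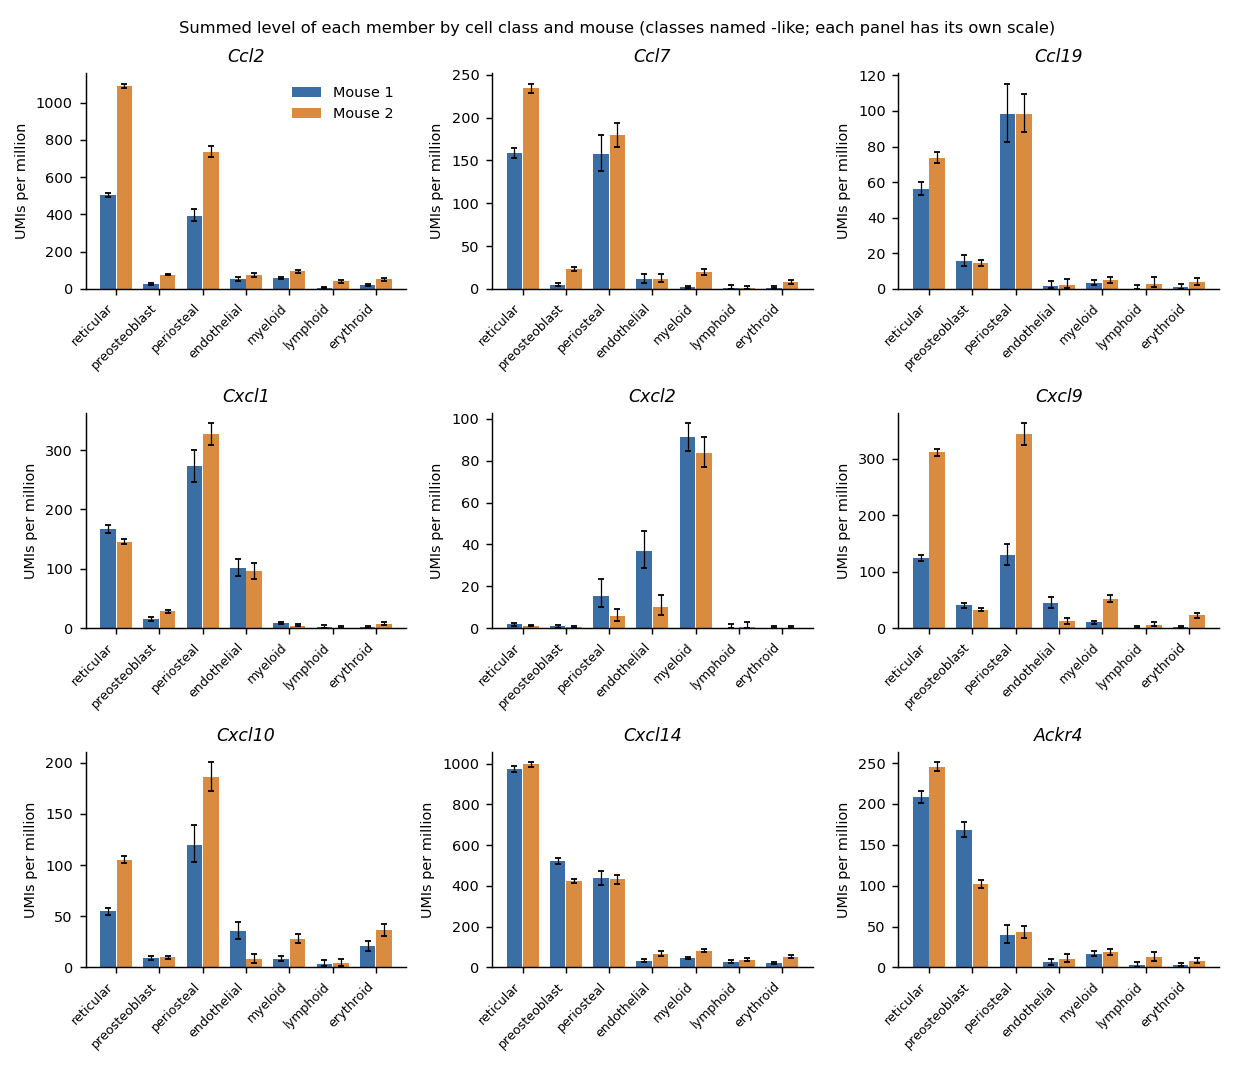
Level of each of the 9 genes (CPM, linear axis from 0, its own scale in each panel) in the 7 named cell classes; blue bars are Mouse 1, orange bars Mouse 2, and error bars are exact 95% Poisson intervals that cover counting error only. Ccl2 and Ccl7 stand high in reticular-like and periosteal-like cells, Cxcl2 in myeloid-like cells, and Cxcl14 and Ackr4 highest in reticular-like cells.

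Within reticular-like cells, Ccl2 and Ccl7 were concentrated in some clusters. Cluster 0, the largest with 763 and 1357 cells and led by Tnfsf11, Ccl2 and Vasn, held Ccl2 at 677 and 1488 CPM and Ccl7 at 200 and 285. Cluster 2, with Bmp4 among its leading genes, held Ccl2 at only 52.0 and 160 and Ccl7 at 29.2 and 69.3. Cluster 3, led by the heat shock genes Hspb1 and Hspa1a, lay between them for Ccl2 (332 and 917) and near cluster 0 for Ccl7 (168 and 261). In both mice the order of the 3 clusters was therefore the same for Ccl2.

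The neutrophil ligands parted from each other. Cxcl1 was highest in periosteal-like cells, at 273 and 327 CPM in Mouse 1 and Mouse 2, followed by reticular-like cells at 167 and 145, endothelial-like cells at 102 and 95.6, and preosteoblast-like cells at 15.2 and 28.2. No neighbours in this order overlapped between mice. Cxcl2 was nearly missing from reticular-like cells, with 30 and 36 UMIs in all, or 1.84 and 1.19 CPM. It was found in myeloid-like cells at 91.1 and 83.9 CPM. Most of these UMIs came from cluster 5, which carried Retnlg and Cxcr2 among its leading genes and held Cxcl2 at 413 and 244. In endothelial-like cells Cxcl2 was at 36.9 and 10.3, and in periosteal-like cells at 15.6 and 5.86, lower within each mouse although the ranges overlapped. In Mouse 1, 1 cell held 20 of the 23 periosteal-like Cxcl2 UMIs, and without it that class was at 2.05. Endothelial-like cells also held 6631 and 4579 CPM of the 8 myeloid markers, against 235 and 210 in reticular-like cells, and the part of myeloid RNA in their Cxcl2 was not tested. Thus the adjacent genes Cxcl1 and Cxcl2, with the same 10 letters before their starts, had their highest levels in different classes.

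The T cell ligands Cxcl9 and Cxcl10 differed more between the mice than between some classes. Cxcl9 was at 124 and 312 CPM in reticular-like cells and at 130 and 344 in periosteal-like cells, which did not separate. In the periosteal-like class 1 cell per mouse held 33.9% and 45.8% of the Cxcl9 UMIs. Without that cell the class was at 87.2 and 188. Lower values were found in the endothelial-like class, 44.5 and 11.8, and in the preosteoblast-like class, 40.2 and 32.9. In Mouse 1, 1 cell held 217 of the 306 Cxcl9 UMIs of the preosteoblast-like cluster 1. Without the top cell that cluster was at 12.6 and 31.0, against 43.2 and 38.7 with it. Cxcl10 was at 120 and 186 in periosteal-like and at 54.7 and 105 in reticular-like cells, which did not overlap. That gap rested in part on single cells: 1 periosteal-like cell per mouse held 26.6% and 43.6% of the Cxcl10 UMIs of the class. Without it, periosteal-like cells were at 88.8 and 105, so the ranges overlapped. In preosteoblast-like cells Cxcl10 was at 8.80 and 10.0. Without the top cell, their cluster 1 was at 3.96 and 7.79, against 9.45 and 10.5 with it. In endothelial-like cells of Mouse 1, Cxcl10 came from cluster 16, led by Selp among others (139 CPM), whereas cluster 9 held 3.96. Cluster 13, a small reticular-like cluster of 51 and 52 cells with a low median of 3543 UMIs, was led by Cxcl9 itself, at 1360 and 333 CPM. These values rested on single cells: 1 cell held 283 of the 305 Cxcl9 UMIs in Mouse 1 and 1 cell 39 of the 67 in Mouse 2, and without the top cell the cluster was at 100.5 and 144, no higher than the class. Cxcl9 was not among the genes used for clustering.

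Ccl19 and its scavenger Ackr4 had different distributions. Ccl19 was at 98.1 and 98.4 CPM in periosteal-like cells, 56.4 and 73.7 in reticular-like cells, and 15.8 and 14.3 in preosteoblast-like cells, with no overlap between neighbours in this order. In endothelial-like cells it was represented by 3 and 4 UMIs. Ackr4 was at 209 and 246 in reticular-like cells and at 169 and 103 in preosteoblast-like cells, against 39.9 and 42.9 in the periosteal-like and 6.07 and 10.3 in the endothelial-like class. The ratio of reticular-like to preosteoblast-like cells for Ackr4 was 1.24-fold in Mouse 1 and 2.40-fold in Mouse 2. Among preosteoblast-like cells, Ackr4 was carried by cluster 1 (180 and 118), led by Wif1, and was low in the Bglap-rich cluster 15 (17.2 and 21.9).

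Cxcl14 marked reticular-like cells at 973 and 997 CPM, which differed by 1.02-fold between the mice. It was at 521 and 424 in preosteoblast-like cells and at 438 and 432 in periosteal-like cells, where the ranges overlapped, and at 31.9 and 68.3 in endothelial-like cells. Of the 9 genes, Cxcl14 and Ackr4 were those higher in reticular-like cells than in preosteoblast-like, periosteal-like and endothelial-like cells without overlap between the mice. Ccl19, Cxcl1 and Cxcl10 were highest in periosteal-like cells in the same sense. For Cxcl10 this held only with the top periosteal-like cell of each mouse counted, since without it the ranges overlapped.

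The mice themselves stood apart for some members. In reticular-like cells, Mouse 2 over Mouse 1 was 2.52-fold for Cxcl9, 2.16-fold for Ccl2, 1.93-fold for Cxcl10 and 1.48-fold for Ccl7, against 1.31-fold for Ccl19, 1.18-fold for Ackr4, 1.02-fold for Cxcl14, 0.872-fold for Cxcl1 and 1.00-fold for Cxcl12. The RNA outside cells also held more Ccl2 and Cxcl9 in Mouse 2, as given above. With 1 library per mouse, a difference between mice cannot be told apart from one between libraries.

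From cell to cell, the members ranged from broad to rare. Cxcl14 was detected with at least 1 UMI in 94.2% and 95.3% of reticular-like cells of Mouse 1 and Mouse 2, and Ackr4 in 79.1% and 79.8%. Ccl2 was detected in 42.0% and 56.5%, Ccl19 in 41.8% and 45.4%, Ccl7 in 31.9% and 39.7%, Cxcl9 in 28.7% and 36.4%, Cxcl1 in 27.7% and 27.5%, Cxcl10 in 11.7% and 13.6%, and Cxcl2 in 1.21% and 0.747%. The median depth of these cells was 12394 and 11611 UMIs. In erythroid-like cells, with a median of 23809 and 25366 UMIs, the share was 6.36% and 17.5% for Ccl2, 11.8% and 25.4% for Cxcl14, 1.82% and 3.17% for Cxcl9 and 10.0% and 8.73% for Cxcl10. After each cell was thinned to 2000 UMIs, Cxcl10 was left in 4.86% and 6.19% of reticular-like and in 4.55% and 2.38% of erythroid-like cells. Its share in Mouse 1 was thus close to the background. Cxcl10 was at 32.0 and 49.97 CPM in the RNA outside cells, against 54.7 and 105 in reticular-like cells.

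Rare cells carried most of the UMIs of Cxcl9 and Cxcl10. The top 1% of reticular-like cells held 54.9% and 53.0% of all Cxcl9 UMIs and 41.6% and 59.6% of all Cxcl10 UMIs, with up to 648 Cxcl9 UMIs and 296 Cxcl10 UMIs in a single cell of Mouse 2. The same share was 21.4% and 15.2% for Ccl2, 20.8% and 18.0% for Ccl7, and 23.2% and 27.9% for Cxcl1. It was 8.16% and 9.72% for Cxcl14 and 5.49% and 6.17% for Ackr4, so these genes were spread over most cells. These shares also depend on how many UMIs a gene gave.

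**Figure D2:**
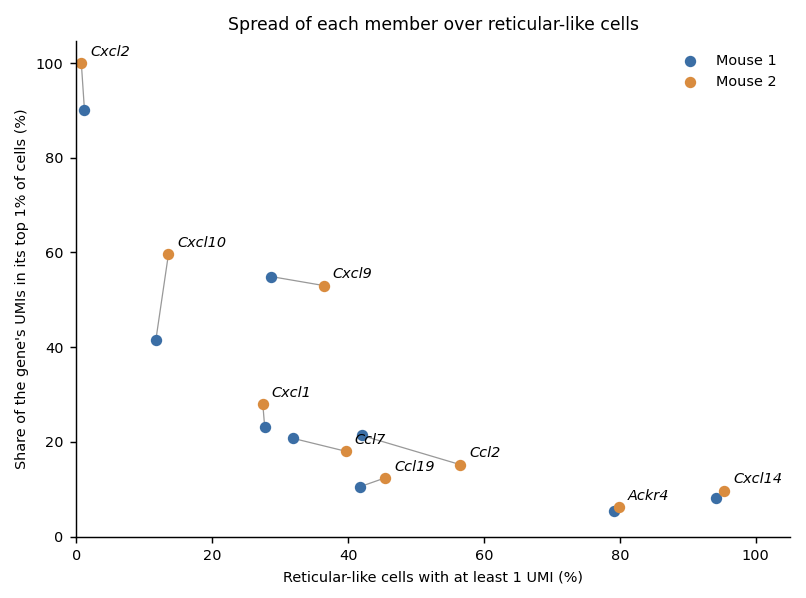
Share of reticular-like cells with at least 1 UMI (x axis, percent) against the share of the UMIs of a gene held by its top 1% of cells (y axis, percent); each point is 1 gene in 1 mouse (blue, Mouse 1; orange, Mouse 2), and gray lines join the mice. Ackr4 and Cxcl14 lie at the lower right, Cxcl9 and Cxcl10 above 40%, and Cxcl2, with 30 and 36 UMIs, at the upper left.

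Across single reticular-like cells, the highest correlations joined Ccl2, Ccl7 and Cxcl1, while Cxcl14 and Ackr4 stood apart. The Pearson correlation of log-scaled levels between Ccl2 and Ccl7 was 0.51 over 1237 cells of Mouse 1 and 0.55 over 2411 cells of Mouse 2. Ccl2 and Cxcl1 followed at 0.32 and 0.34, Ccl7 and Cxcl1 at 0.30 and 0.27, Cxcl1 and Cxcl10 at 0.25 and 0.20, and Cxcl9 and Cxcl10 at 0.18 and 0.27. Of the cells with a Ccl2 UMI, 53.8% and 57.1% also had a Ccl7 UMI, against 15.9% and 17.0% of the cells without. The cells with Ccl2 were deeper, with medians of 13640 and 12132 UMIs against 11455 and 10702. Cxcl9 was at 0.020 and 0.065 with Ccl2, and the adjacent pair Cxcl1 and Cxcl2 at 0.15 and 0.10. Cxcl14 and Ackr4 were at 0.085 and 0.10 with each other and between -0.090 and 0.032 with every other member. These values describe sparse counts of cells that share a library, and the weak ones are no finding.

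**Figure D3:**
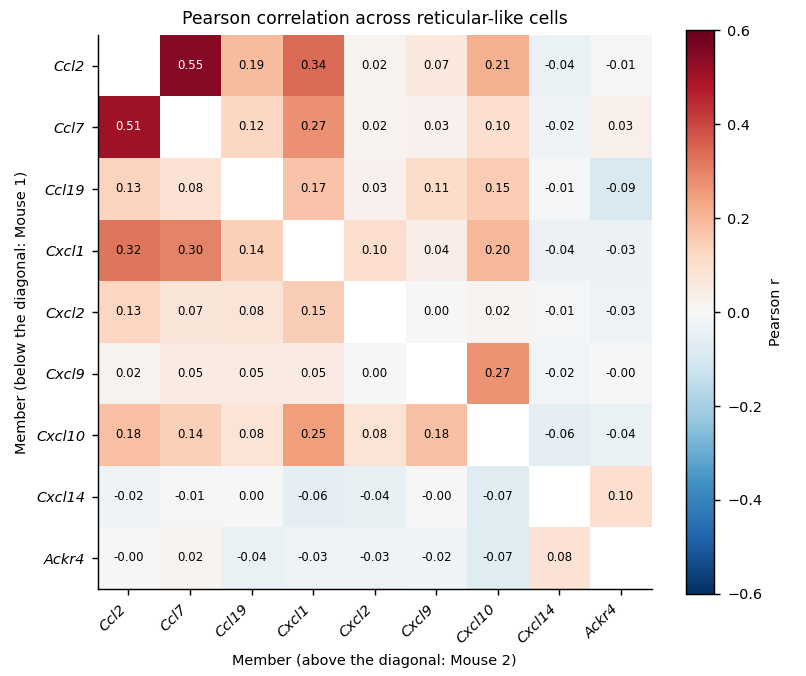
Pearson correlation of each pair of the 9 genes across reticular-like cells, from log-scaled UMIs per 10000; values below the diagonal are Mouse 1 (1237 cells), values above it Mouse 2 (2411 cells), and color runs from blue (negative) to red (positive). Ccl2 with Ccl7 is the strongest pair, at 0.51 and 0.55.

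The immediate early genes Fos, Jun and Egr1 encode transcription factors that many stimuli switch on within minutes. Reticular-like cells of each mouse were ordered by the summed UMIs of these 3 genes per 10000 and split into 3 equal groups, low, middle and high, with medians of 1.71, 26.7 and 117 in Mouse 1 and 2.33, 19.4 and 90.8 in Mouse 2. Median depth was alike, between 11369 and 12752 UMIs. The heat shock genes moved with the score: they were at 141 and 170 CPM in the low cells and at 1619 and 2933 in the high cells, and their part in the values below was not tested. Whether the score was present before the bone was digested was not tested either.

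Cxcl1 was the member that followed this score upward in both mice. It was at 49.7, 159 and 283 CPM in the low, middle and high cells of Mouse 1, and at 108, 128 and 199 in Mouse 2, a ratio of high to low cells of 5.69-fold and 1.84-fold. With stricter limits on cells the log2 ratio was 1.26 and 0.69, against 2.51 and 0.88 here. The direction was the same within the 3 larger reticular-like clusters: it went from 75.6 to 340 and from 128 to 219 in cluster 0, from 4.74 to 80.6 and from 8.05 to 75.0 in cluster 2, and from 44.0 to 93.8 and from 96.0 to 334 in cluster 3. In 6 equal groups, the lowest one of Mouse 2 stood at 38.8 and the second at 174, so the course was not smooth there. Cxcl2, its neighbour, had too few UMIs to give a direction.

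Cxcl14 had the opposite order. It was at 1213, 935 and 789 CPM in the low, middle and high cells of Mouse 1 and at 1257, 932 and 812 in Mouse 2, a ratio of 0.650-fold and 0.646-fold. In cluster 0 it went from 1338 to 804 and from 1374 to 937, and in cluster 3 from 883 to 850 and from 808 to 661, whereas in cluster 2 it went from 837 to 962 in Mouse 1 and from 869 to 842 in Mouse 2. Ackr4 had no common direction, at 234 and 189 in the low and high cells of Mouse 1 and at 229 and 263 in Mouse 2.

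The monocyte ligands did not move together along the score, although they were correlated across cells. Ccl7 was at 115, 181 and 176 CPM in the low, middle and high cells of Mouse 1 and at 190, 257 and 254 in Mouse 2, so the low group had the lowest value in both mice and the upper groups had about the same level. Ccl2 was at 459, 671 and 382 in Mouse 1 and at 1269, 1165 and 844 in Mouse 2, which was lowest in the high cells of both mice. Among all cells with at least 10 Adipoq and Lpl UMIs per 10000, the direction turned in Mouse 1, with a log2 ratio of high to low cells of 0.21 against -0.26 here, and stayed at -0.34 in Mouse 2. With Egr1 alone it was 0.0072 and -0.15. Within clusters Ccl2 had no common direction: it went from 724 to 418 and from 1547 to 1340 in cluster 0, but from 50.2 to 65.9 and from 103 to 194 in cluster 2.

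Cxcl10 and Ccl19 gave no direction shared by both mice, and Cxcl9 was only slightly higher in the high than in the low cells of each mouse. Cxcl10 was at 26.2 and 69.4 CPM in the low and high cells of Mouse 1 and at 98.3 and 94.8 in Mouse 2. Cxcl9 was at 136 and 154 in Mouse 1 and at 266 and 270 in Mouse 2, while the middle cells were at 81.5 and 397. In cluster 0 Cxcl9 went from 85.6 to 158 in Mouse 1 and from 205 to 296 in Mouse 2. It fell from 341 to 316 in cluster 3 of Mouse 2. In cluster 13 of Mouse 1, where 1 cell held 283 of the 305 UMIs, it fell from 4181 to 135. Ccl19 was at 53.9 and 57.4 in the low and high cells of Mouse 1 and at 85.9 and 65.9 in Mouse 2.

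**Figure D4:**
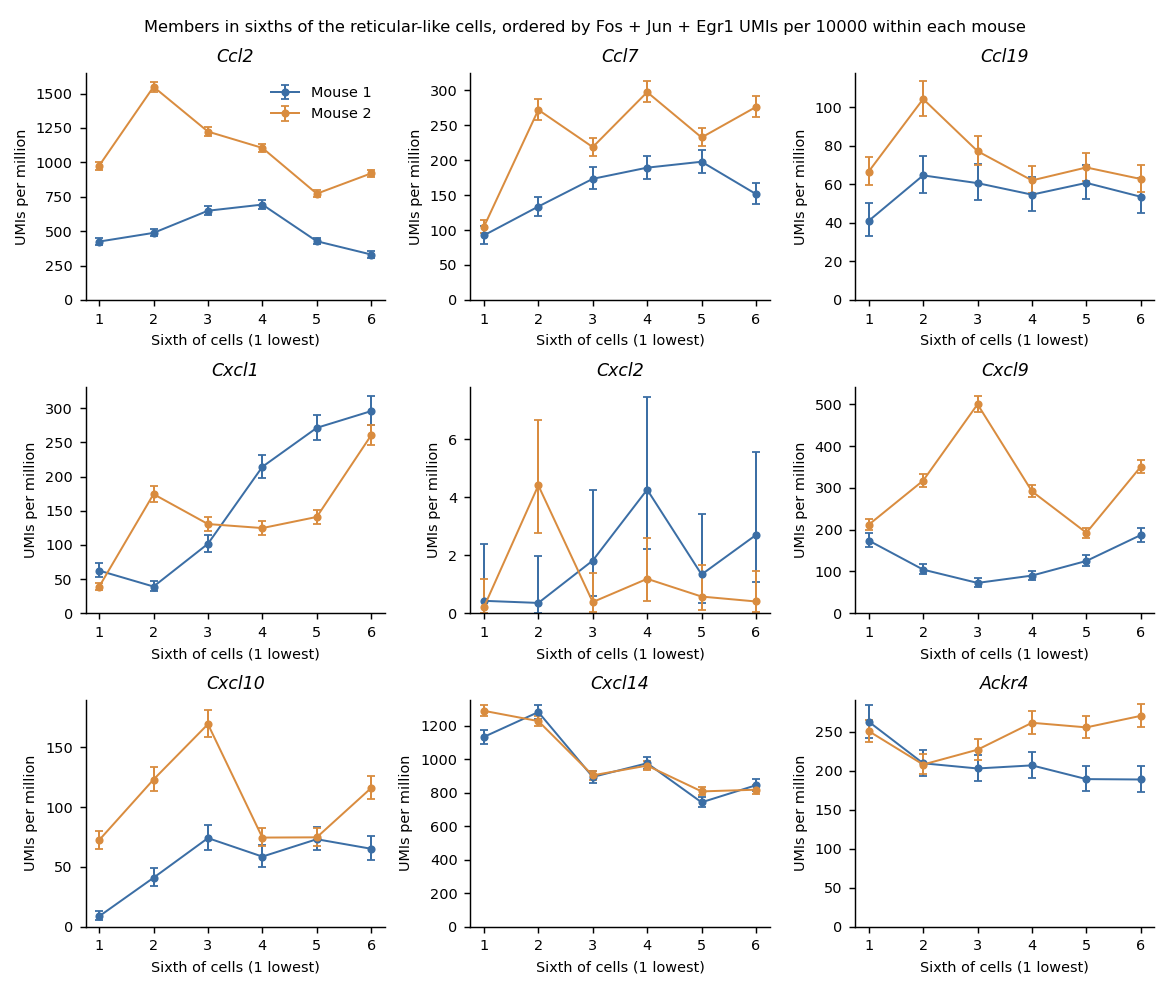
Level of each of the 9 genes (CPM, linear axis from 0) in 6 equal groups of reticular-like cells ordered by summed Fos, Jun and Egr1 UMIs per 10000 within each mouse (1 lowest); blue is Mouse 1, orange Mouse 2, and error bars are exact 95% Poisson intervals that cover counting error only. Cxcl1 ends at its highest level in both mice, and Cxcl14 is lower in the upper groups.

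Genes of related pathways were tested between high and low cells, with UMIs summed per mouse and edgeR's quasi-likelihood test adjusted by Benjamini-Hochberg over 11931 genes. Of all genes tested, 0.955% were called at an adjusted p under 0.05 (0.821% higher and 0.134% lower in high cells), and 3.07% with the mouse as a block (2.08% higher and 0.989% lower). The groups were cut by expression in the same cells, so these calls say which genes varied along with the score. Of 16 other immediate early genes, 11 rose, with a median log2 fold change of 1.96 over the list against 0.0060 over all genes, and with the block 12 rose. Without the low sum of Mouse 1 or of Mouse 2, which left 1 sum in that group, fewer of them were called, as over all genes. Egr2 (4.29), Atf3 (3.56), Zfp36 (2.80) and Ier2 (2.70) had the largest log2 fold changes, and Dusp1, Btg2, Klf6, Nr4a1 and Junb rose as well, as did Ier5 and Myc. Of 20 NF-kappaB response genes, 2 rose and none fell: Nfkbiz, an NF-kappaB cofactor, went from 39.4 and 76.4 to 230 and 176 CPM, and Tnfaip3, a feedback inhibitor, from 30.1 and 39.3 to 64.6 and 61.9. Their log2 fold changes were 1.84 ± 0.30 and 0.90 ± 0.15 (SE), with adjusted p = 0.047 and 0.0486. The median over that list was 0.00088, and Nfkbia, Il6 and Icam1 did not pass. Both calls lay near the threshold: neither was made with stricter or looser limits on cells, among the cells chosen by Adipoq and Lpl, by Fos or Jun alone, or without either high sum or the low sum of Mouse 1. Tnfaip3 was also lost with DESeq2's size factors and without the low sum of Mouse 2. With the block, Ier3 rose and Tnfaip2 and Nfkbie fell as well.

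Of 20 interferon response genes, 1 rose, the transcription factor Irf1, which went from 172 and 233 to 595 and 636 CPM (log2 fold change 1.65 ± 0.16, adjusted p = 0.00694). Tnfaip3, Irf1, Ier5 and Myc lay beyond the 10 largest changes that the rule names, and were named after their values were seen. Irf1 was called under every alternative other than Fos alone. With the block, Socs1 rose and Gbp2 fell too. Of the 51 other chemokine ligands and receptors, 13 passed the filter on low counts and 0 were called by edgeR without the block, 2 at an unadjusted p under 0.05 and 0 by DESeq2. With the block 1 was called, Ccl5, at 0.358 and 34.9 in high against 0.388 and 1.95 in low cells, a difference seen in Mouse 2 only. Cxcl12 was at 8620 and 9156 in high and at 9370 and 8881 in low cells, a log2 fold change of 0.020 ± 0.059 that did not pass. In cluster 0 alone, an alternative chosen after seeing the data, 3 of the 14 calls over the 4 lists remained, Irf1, Nfkbiz and Zfp36, of 12 calls over all genes. The immediate early list kept a median log2 fold change of 1.78 there, with 13 of 15 genes at an unadjusted p under 0.05.

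The tdTomato state offered a test of the members themselves. In these mice tdTomato is meant to mark cells in which Cxcl12-iCreER was active after tamoxifen. The paper reports that some mice of this line held tdTomato+ cells without tamoxifen, nearly all of them with blood or endothelial surface markers. Reticular-like cells were called tdTomato-positive above the 99th percentile of tdTomato UMIs per 10000 in the hematopoietic cells of the same mouse. This gave 499 positive and 738 negative cells in Mouse 1 and 965 and 1446 in Mouse 2. The limits were 7.94 and 14.8 UMIs per 10000. Whether labeled hematopoietic cells raised these limits was not tested. Only 507 and 767 reticular-like cells had 0 tdTomato UMIs, so part of the negative cells carried tdTomato transcript below the limit. Without a block, edgeR called 0 of the 9 members and 0% of the 12186 genes tested, while 1 member (Cxcl2) and 476 genes had an unadjusted p under 0.05, and DESeq2 called 0 members and 12 genes. Each pair of sums came from 1 animal, and with the mouse as a block 2 members and 2.78% of all genes were called (1.4% higher and 1.39% lower).

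With the block, Ccl19 and Cxcl1 were higher in tdTomato-positive cells. Ccl19 was at 61.9 and 80.0 CPM in positive and at 52.6 and 69.5 in negative cells of Mouse 1 and Mouse 2 (log2 fold change 0.24 ± 0.061, adjusted p = 0.046 with the block and 0.978 without). Cxcl1 was at 183 and 156 in positive and at 155 and 138 in negative cells (0.23 ± 0.051, adjusted p = 0.0258 with the block and 0.978 without). Both genes were higher in positive cells of 2 of 2 mice. Cxcl14 (0.18 ± 0.046, adjusted p = 0.052), Ackr4 (-0.20 ± 0.052, 0.0518), Cxcl10 (0.28 ± 0.072, 0.0532) and Ccl2 (0.20 ± 0.054, 0.0628) had the same direction in both mice and missed the threshold with the block. Ccl7 and Cxcl9 differed in direction between the mice, and Cxcl2 rested on 18 and 22 UMIs in positive and 12 and 14 in negative cells. Positive cells lay in cluster 0 more often, at 64.9% and 61.8% against 59.5% and 52.6% of negative cells. In cluster 0 alone, chosen after seeing the data, the Cxcl1 difference with the block was -0.014 (adjusted p = 0.971), Ccl19 was at 0.27 (0.0293) and Ackr4 was at -0.26 (0.0125).

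Of the other chemokine genes, 11 passed the filter on low counts and 4 were called with the block. The membrane-bound ligand Cx3cl1 was at 102 and 114 CPM in positive against 76.4 and 82.9 in negative cells (log2 fold change 0.47 ± 0.055, adjusted p = 0.000209) and Cxcl12 at 9453 and 9618 against 8683 and 8652 (0.16 ± 0.036, 0.0227). The other two, Cxcl13 (-1.92) and Pf4 (1.33), were at or under 8.35 CPM in every sum. None of these 4 was called without the block. The iCreER that sets the tdTomato state was driven by a Cxcl12 BAC transgene, so the groups were not set independently of Cxcl12.

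**Figure D5:**
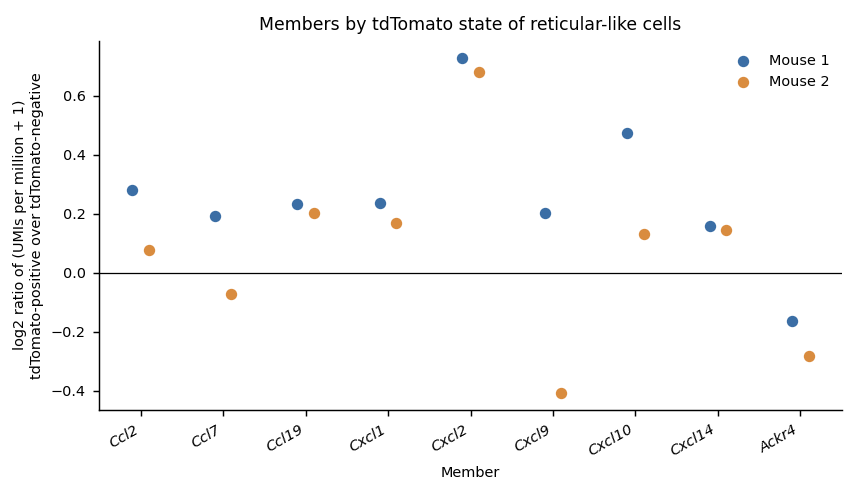
log2 ratio of (CPM + 1) between tdTomato-positive and tdTomato-negative reticular-like cells for each of the 9 genes; each point is 1 mouse (blue, Mouse 1; orange, Mouse 2) and the line marks 0. Ccl19, Cxcl1 and Cxcl14 lie above 0 and close together in both mice, Ackr4 lies below 0, and Cxcl9 and Ccl7 fall on both sides.

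The other genes of the pathway were tested between reticular-like and preosteoblast-like cells in the same manner. Over all 12703 genes tested, 27.7% were called, 13.9% higher and 13.8% lower in reticular-like cells. Of the 51 chemokine ligands and receptors outside the members, 20 passed the filter on low counts, 6 were higher and 2 lower, and the median log2 fold change of the 20 was 0.75 against -0.015 over all genes. Cxcl12 was at 8996 and 9036 CPM in reticular-like and at 3127 and 1819 in preosteoblast-like cells (log2 fold change 1.87 ± 0.26, adjusted p = 0.000993). By the labels the cells were sorted for GFP, which came from the Cxcl12 allele, so both classes had already been selected on Cxcl12. Cx3cl1 was at 86.7 and 95.3 against 16.2 and 11.7 (2.73 ± 0.19, 3.91e-05), and Cxcl16, the other membrane-bound chemokine, at 25.5 and 29.0 against 10.1 and 11.2 (1.34 ± 0.15, 0.000368). Ccl17 (3.66), Ccl9 (1.65) and Ccl27a (1.09) were higher as well, at low levels. The scavenging receptor Ackr3 was lower, at 0.245 and 0.0994 against 4.33 and 1.51 (-4.00 ± 0.77, 0.00535), as was Ccl3 (-3.80). For both, the reticular-like values were near the level of 3 UMIs, 0.184 and 0.0994 CPM. With the block, which called 31.2% of all genes, Cxcl5 and Ccl5 were higher too. Without the reticular-like sum of Mouse 2, or without the preosteoblast-like sum of Mouse 1, fewer genes of the list were called, as over all genes.

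The receptors for these ligands were near 0 in reticular-like cells and were detected in hematopoietic or endothelial-like ones. Ccr2, the receptor of Ccl2 and Ccl7, was at 168 and 68.1 CPM in myeloid-like cells and at 0.306 and 0.0331 in reticular-like cells. Cxcr2, bound by Cxcl1 and Cxcl2, was at 135 and 165 in myeloid-like and at 0.306 and 0.0663 in reticular-like cells. Ccr7, the Ccl19 receptor, was at 114 and 113 in lymphoid-like cells and was below the filter on low counts in the stromal test. Cxcr3, which binds Cxcl9 and Cxcl10, had 0 UMIs in reticular-like cells of both mice, and the named class with the most was myeloid-like, at 2.48 and 0.329. A Siglech-rich unnamed cluster of 6 and 10 cells held it at 15.1 and 73.0, from 1 and 8 UMIs. Cxcr4 was at 297 and 172 in lymphoid-like and at 0.674 and 0.762 in reticular-like cells, and its difference from preosteoblast-like cells (-0.93 ± 0.58, adjusted p = 0.281) did not pass. Ackr1, a chemokine-binding receptor of venules and erythroid cells, was at 77.4 and 63.7 in endothelial-like and at 43.3 and 40.4 in erythroid-like cells.

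The genes most like each member were found over 35 sums of a cluster in 1 mouse with at least 20 cells, by Pearson's r of log2(CPM + 1) among 9018 genes. Cxcl14 was most like Aldh1a2, a retinoic acid synthase (0.98), 1500009L16Rik and Loxl1. Ackr4 was most like Fam174b (0.96), Islr and Sfrp1, and Ccl19 most like the complement inhibitor Serping1 (0.97), Rarres2 and Gpx3. Cxcl1 was most like the protease gene Adamts1 (0.93), Klf9 and Sema4c. Ccl7 was most like Vcam1 (0.84), Dse and Impact, and Ccl2 most like Igf1 (0.79), Vcam1 and Dse, so the pair shared Vcam1, an adhesion molecule, and Dse. Cxcl9 was most like Gm2564 (0.86), Aldh1a2 and Cd302, Cxcl10 most like the metallothionein Mt1 (0.80), Cxcl16 and Mt2, and Cxcl2 most like Hacd4 (0.81), Pxn and the myeloid cytokine Il1b. The sums share libraries and differ in depth, so these values are descriptions.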

How the data were processed

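Droplet-based 3′ single-cell libraries (10x v3) were made from sorted femoral cells of 2 mice. The authors deposited unnormalized UMI counts for each feature in each barcode, made with Cell Ranger 3.0.0 (per the file headers), against mm10 with reporter sequences. The annotation release is not given in the sources used here. All barcodes were deposited, 54940400 and 88790688 UMIs in all. The members and gene lists were chosen with earlier results of these data known.

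Barcodes were kept as cells from 1000 genes upward and up to 15% of UMIs from mitochondrial genes. They were clustered in scanpy 1.11.5 (2000 variable genes, 30 components, 15 neighbours, Leiden resolution 0.5) and named "-like" from fixed markers. A marker counted where its level was 1.5-fold that of the remaining clusters on average and 10% of cells had it, and a name needed 3 such markers. Scrublet marked 15 and 6 cells as doublets, too few for the caller to be relied on, so none was removed. An alternative left out the 60 and 168 cells with the highest scores. UMIs were summed per mouse and class or group, and tested with edgeR 4.0.16 (TMM, filterByExpr, quasi-likelihood, 2-sided, Benjamini-Hochberg over all genes tested); 2 sums per group limit the precision. DESeq2 1.42.0 was an alternative. The tests were checked on simulated counts. Intervals cover counting error only.

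Since groups compared were taken from the same animal, their sums are paired. Deviations of the groups of a mouse from their group means correlated across genes at 0.30 for the class comparison, 0.27 for the immediate early comparison and 0.56 for tdTomato. Named genes were the 9 members, up to 10 called list genes per direction, Cxcl12, Cxcr4, Ackr3 and Ccr7. The alternatives were other limits on cells, filters, normalizations, resolutions, scores and each sum left out. All 9 members passed the filter on low counts in each of the 3 tests.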

Additional observations from a re-analysis of the deposited data

How the results depend on the processing

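The member levels kept their direction between reticular-like and preosteoblast-like cells in every alternative run, with mean log2 ratios of both mice from 0.68 (Ackr4) to 5.85 (Ccl7), and from 3.49 to 5.42 for Ccl2. Ackr4 in Mouse 1 alone was at 0.31. Between high and low cells of the Fos, Jun and Egr1 score, the means of Cxcl1 (0.97 to 1.86) and Ccl7 (0.23 to 1.05) stayed above 0 and those of Cxcl14 (-0.65 to -0.38) and Ccl2 (-0.62 to -0.063) below it. Ccl2 in Mouse 1 alone reached 0.21, while the means of Ccl19, Cxcl2, Cxcl9, Cxcl10 and Ackr4 changed sign. With stricter limits on cells, a cluster of 369 and 93 reticular cells stayed unnamed because Sox9 was among its top genes. Without a filter on low counts, 14 chemokine genes were called between classes in place of 8, among 4306 calls over 19502 genes. Between high and low cells 29 list genes were called in place of 14, among 724 calls over 18196 genes, where the main test had 114 over 11931. Leaving out 1 sum gave 4 to 6 and 6 to 13 calls, and 0 of the members by tdTomato state. Ordering cells by Fos alone gave 9 list calls, among 96 over 11926 genes, and cluster 0 alone 3, among 12 over 11185. The replicate block, which pairs the sums of a mouse, gave 10 and 21 list calls, among 3966 over 12703 and 366 over 11931 genes. For tdTomato it gave 2 member calls in place of 0, among 339 over 12186 genes. In cluster 0 alone it also gave 2, among 285 over 11494 genes. It changed no other call of a named gene beyond those given in the report. The cause was not tested.

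Some values of differences that were not called turned in sign. Cxcl12 between high and low cells was at -0.0030 with looser limits on cells, -0.016 with Jun alone, -0.080 in cluster 0 and -0.017 to 0.050 with 1 sum left out. By tdTomato state with at least 5 against 0 tdTomato UMIs, Ccl2 was at -0.094, Ccl7 at -0.15 and Cxcl9 at 0.34. Cxcl1 in cluster 0 was at -0.0028 without and -0.014 with the block. With the highest Scrublet scores removed, Cxcl9 was at 0.077 and Pf4 at -0.27. With 1 sum left out, Ccl2 ranged from -0.42 to 0.90, Ccl7 from -0.24 to 0.45, Cxcl9 from -0.78 to 0.80, Cxcl10 from -0.17 to 0.95 and Pf4 from -0.19 to 1.90. Cxcl2, with 30 and 36 UMIs in reticular-like cells, lacks the depth for a direction there.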
